A study of Mus musculus with 21 samples.

Results

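The mitochondrial genome carries 37 genes, and all 37 were present among the 53801 genes of the deposited count table, chosen here by their mt- names. They comprise 13 protein-coding genes, 2 ribosomal RNA genes (mt-Rnr1 for the small and mt-Rnr2 for the large ribosomal subunit) and 22 transfer RNA genes. The libraries were bulk RNA-seq of CD138+ IgA+ plasma cells (PCs), the antibody-secreting cells of the gut wall, sorted from the lamina propria of the small intestine in C57BL/6 animals, and each library came from a separate animal. Control mice were Mb1Cre-/- x Arntlfl/fl and knockout mice were Mb1Cre+/- x Arntlfl/fl, so both genotypes carried the floxed Arntl gene, which encodes the core clock protein Bmal1, and differed in the Cre driven from Mb1, an early B cell gene, which deletes throughout the B lineage and not in PCs alone. Mice were sampled at Zeitgeber time (ZT) 0, lights on, or ZT12, lights off, giving 6 control mice at ZT0, 6 control mice at ZT12, 4 knockout mice at ZT0 and 5 knockout mice at ZT12. The comparisons asked whether transcripts of the mitochondrial genome differed between the 2 times of day and whether that difference changed when Arntl was deleted in the B lineage.

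Mitochondrial DNA is a small circle transcribed by its own polymerase from both strands into long precursors. The transfer RNAs lie between the other genes and are cut out, which releases the messenger and ribosomal RNAs between them. The proteins made from these messengers are membrane subunits of respiratory chain complexes I, III and IV and of the ATP synthase (complex V), which are completed by many subunits encoded in the nucleus, whereas complex II is encoded wholly in the nucleus. The secretion of large amounts of antibody makes PCs heavy users of the ATP these complexes supply.

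Libraries held 14471018 to 22785835 counts, of which immunoglobulin genes took 51.5% to 63.6%. The summed level of 8 PC markers was 281773 to 593591 CPM (counts scaled to a common library size), and no marker of this or of the other lists was at 0 in all mice. Markers of other cell types were low but present: the 12 epithelial markers summed to 55.3 to 201 CPM in control mice at ZT0, 74.1 to 988 in control mice at ZT12, 73.7 to 87.0 in knockout mice at ZT0 and 67.1 to 501 in knockout mice at ZT12. T cell (12.5 to 29.7 CPM), myeloid (14.4 to 81.7 CPM) and other B cell (12.6 to 29.4 CPM) marker sums overlapped across the 4 groups. Arntl counts taken over the whole gene, deleted part or not, were 6.83 to 8.36 CPM in control and 4.08 to 6.47 CPM in knockout mice at ZT0, and 4.00 to 5.56 against 3.11 to 4.93 CPM at ZT12, where the genotypes overlapped. Genotype was taken from the sample titles, because the genotype field of most knockout samples names the control genotype. In such bulk libraries, fewer cells of a type and less RNA per cell cannot be told apart.

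The levels of the 13 messengers fell into 2 separate ranges, and the genes of the lower range lay next to each other on the genome. Per kilobase of gene, the mean over all 21 mice was highest for mt-Co1 at 2228 CPM per kilobase, followed by mt-Cytb at 1210, mt-Nd1 at 884, mt-Nd2 at 453, mt-Nd5 at 380, mt-Nd4 at 350 and mt-Nd6 at 330. The last 4 of these had ranges over mice that overlapped one another. The other 6 genes, the run from mt-Co2 to mt-Nd4l on the plus strand (MT:7013-10173), were far below, with mt-Co2 at 26.2 CPM per kilobase, mt-Co3 at 11.4, mt-Atp6 at 10.9, mt-Nd3 at 6.91, mt-Nd4l at 3.88 and mt-Atp8 at 0.817. The lowest gene of the upper range stood 12.6 times above the highest gene of the lower range, and mt-Co1 stood 85.2 times above mt-Co2, although both encode catalytic core subunits of complex IV. The 7 upper genes held 99.5% of the 2600905 counts on the 13 messengers and the 6 lower genes held 0.502%, or 13049 counts.

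**Figure D1:**
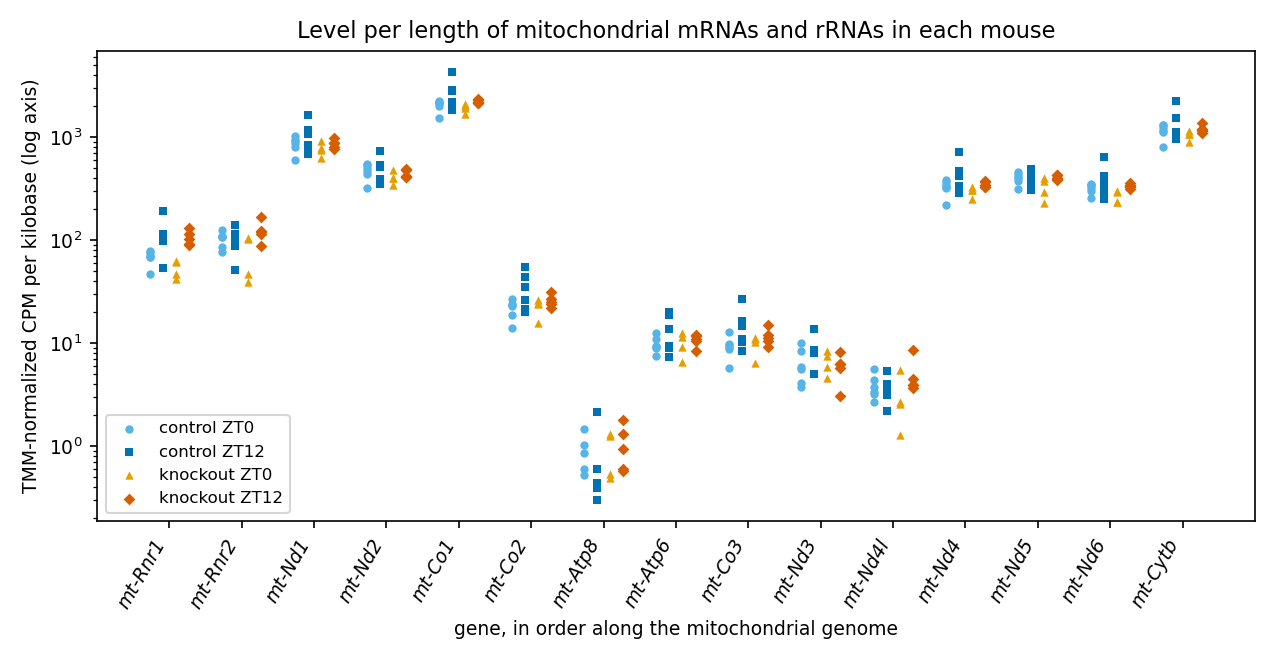
Level of the mitochondrial genes per kilobase of gene (TMM-scaled CPM per kilobase, log axis), each point a mouse, in the order of the genes on the mitochondrial genome. The messengers sit in an upper range, from mt-Co1 at a mean of 2228 down to mt-Nd6 at 330, and a lower range of the 6 neighbours from mt-Co2 to mt-Nd4l at 26.2 and below. Mice without a count of mt-Atp8 cannot be drawn on a log axis and are left out for that gene.

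Most genes of the lower range had near-identical sequence elsewhere in the mouse genome. An insertion of mitochondrial DNA into chromosome 1 carries 7 annotated pseudogenes, Gm29216 (a copy of part of mt-Co1), Gm28661 (mt-Co2), Gm10925 (mt-Atp6), Gm28437 (mt-Co3), Gm28438 (mt-Nd3), Gm10222 (mt-Nd4l) and Gm28439 (part of mt-Nd4). Between its outermost annotated copies it runs over GRCm38 chr1:24611535-24616197 (minus strand). This stretch is collinear with MT:6381-11042, but for a shift of 1 base from mt-Nd4l on, and so spans the positions of all 6 low genes. The share of 100-base windows of each mitochondrial gene found unchanged in another annotated transcript was 99.5% for mt-Co2, 99.5% for mt-Atp6, 99.9% for mt-Co3, 97.6% for mt-Nd3 and 98.5% for mt-Nd4l, the genes of low level. It was 60.8% for mt-Nd4, 30.8% for mt-Co1 and 3.2% for mt-Nd2 among the genes of high level, and 0% for mt-Cytb, mt-Nd1, mt-Nd5, mt-Nd6 and both ribosomal RNAs. A read from a window that is the same in both places cannot be assigned by its sequence, and how such reads were counted is not given in the sources used here. The part of this sharing in the levels was not tested.

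**Figure D2:**
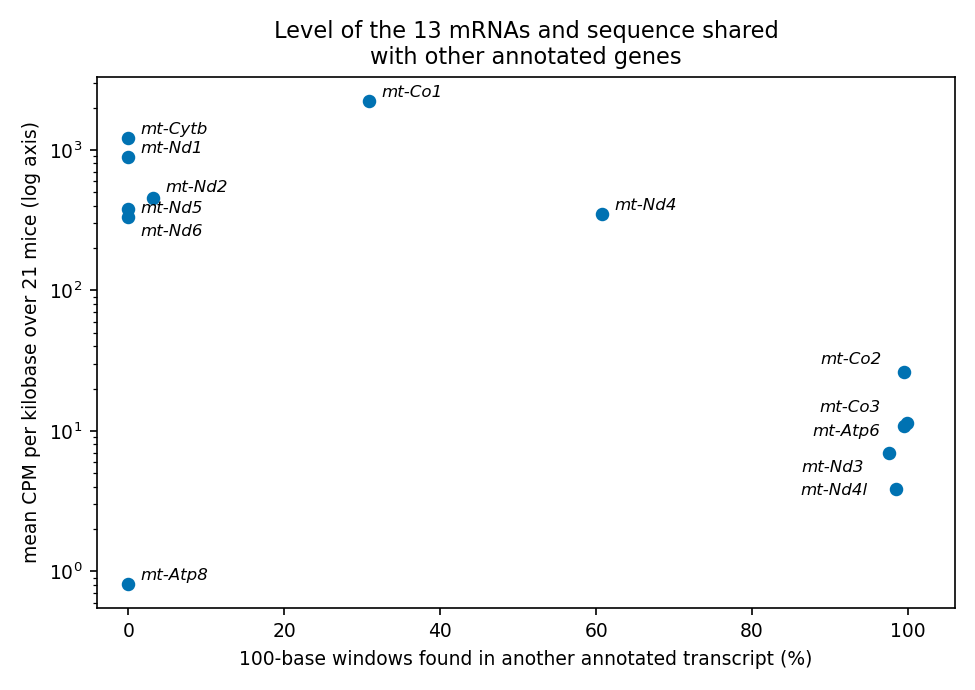
Mean level of each of the 13 mitochondrial messengers (CPM per kilobase over 21 mice, log axis) against the share of its 100-base windows (percent) that occur unchanged in another annotated transcript. The 5 genes with a share of 97.6% or more all lie at 26.2 CPM per kilobase or below, and mt-Atp8 is the low gene with a share of 0%. The last 43 bases of mt-Atp8 lie in the copy of mt-Atp6, a stretch shorter than a window.

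The places where the copies part from the mitochondrial gene were few. The 492 bases of mt-Co1 that Gm29216 carries differed from it at 6 positions, T1056A, C1057T, A1059G, A1060G, C1062A and A1066T, counted from 1 at the first base of mt-Co1 with the mitochondrial base given first. All 6 lie in the 60 bases at the start of the copy (mt-Co1, MT:6381-6440, plus strand, and Gm29216, chr1:24616138-24616197, minus strand, both GRCm38), shown here because they are the bases by which a read of mt-Co1 can be told from its copy, with differing bases in capitals.
mt-Co1: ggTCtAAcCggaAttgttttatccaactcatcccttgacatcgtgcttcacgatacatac
Gm29216: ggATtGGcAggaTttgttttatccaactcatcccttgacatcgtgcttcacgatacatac
mt-Nd3, which encodes a core membrane subunit of complex I, differed from Gm28438 at a single position, T3C, also capitalised in the first 60 bases (mt-Nd3, MT:9459-9518, plus strand, and Gm28438, chr1:24613060-24613119, minus strand).
mt-Nd3: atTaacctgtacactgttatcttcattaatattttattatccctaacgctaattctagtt
Gm28438: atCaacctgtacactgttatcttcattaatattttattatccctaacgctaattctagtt
The copies of mt-Co2 (681 bases), mt-Atp6 (678 bases), mt-Co3 (783 bases), mt-Nd4l (294 bases) and the first 876 bases of mt-Nd4 had no difference at all. mt-Nd4l (MT:9877-10173, plus strand), another complex I subunit, is shown whole because it lies within the shared sequence, with the 3 bases beyond Gm10222 in capitals. These 3 bases also belong to the start of mt-Nd4 and are carried without a difference by Gm28439 (MT:10167-11042), so they do not tell mt-Nd4l from the insertion.
mt-Nd4l: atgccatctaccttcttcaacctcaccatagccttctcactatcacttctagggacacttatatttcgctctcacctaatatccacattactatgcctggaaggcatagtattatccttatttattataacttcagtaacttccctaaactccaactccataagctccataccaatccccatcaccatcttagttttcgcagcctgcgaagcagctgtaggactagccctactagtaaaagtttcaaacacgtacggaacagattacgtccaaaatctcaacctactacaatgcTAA

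mt-Atp8, which encodes a small subunit of the ATP synthase, was low, and no annotated copy covered it outside its overlap with mt-Atp6. Its 204 bases (MT:7766-7969, plus strand) share the last 43 with the start of mt-Atp6 on the same strand, shown in capitals, so that a read there belongs to both genes. Gm10925 carries these 43 bases without a difference, a stretch shorter than the 100-base windows, so the window share of mt-Atp8 was 0%.
mt-Atp8: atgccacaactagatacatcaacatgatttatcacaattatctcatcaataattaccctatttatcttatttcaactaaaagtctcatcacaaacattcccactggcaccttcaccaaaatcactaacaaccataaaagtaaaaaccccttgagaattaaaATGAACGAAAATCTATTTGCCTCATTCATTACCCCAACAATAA
The stretch of chromosome 1 that would lie opposite the start of mt-Atp8 (chr1:24614652-24614884, 233 bases) carries no annotated gene, and its sequence was not compared here. mt-Atp8 had 57 counts in all 21 mice, 0 to 0.436 CPM, and a level so near the floor of detection gives little precision.

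The nuclear copies were themselves counted. Together they took 421 to 1361 counts per mouse, and their mean level was 19.8 CPM per kilobase for Gm28661, 13.5 for Gm10925, 8.61 for Gm29216, 7.90 for Gm28437, 3.71 for Gm28439, 2.56 for Gm10222 and 1.57 for Gm28438. The level of Gm28661 was of the same order as that of mt-Co2 (26.2 CPM per kilobase), and Gm10925 had a higher mean than mt-Atp6 (10.9 CPM per kilobase).

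mt-Nd6 was the only messenger read from the minus strand, and its end overlaps the end of mt-Nd5, both being complex I subunits, over 14 bases on opposite strands. The ends of the pair (mt-Nd5, MT:13526-13565, plus strand, and mt-Nd6, MT:13552-13591, minus strand) are shown with the overlap in capitals, which is the reverse complement of the same 14 base pairs.
mt-Nd5: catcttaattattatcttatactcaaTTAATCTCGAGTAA
mt-Nd6: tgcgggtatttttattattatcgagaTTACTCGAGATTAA
Whether the counting used strand is not given in the sources used here, so reads of mt-Nd6 and reads of plus-strand RNA opposite it cannot be told apart. The mRNA of mt-Nd6 is known to lack a poly(A) tail, the libraries were made from RNA caught on oligo-dT beads, and mt-Nd6 was measured at 121 to 329 CPM. The same selection bears on the other members, since mitochondrial tails are short and, in mt-Co3, mt-Cytb and mt-Nd4, complete the stop codon of a gene that ends in a single T. The last 20 bases of these 3 genes (MT:9371-9390, MT:15269-15288 and MT:11525-11544, plus strand) are shown with that T in capitals.
mt-Co3: catttattgatgaggatctT
mt-Cytb: aatactaaaattatatccaT
mt-Nd4: aattacaggcctgacaataT

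Time of day was compared first in control mice. None of the 29 members that passed the filter of 10 total counts was called by edgeR's quasi-likelihood test after Benjamini-Hochberg adjustment over 20256 genes, against 1.73% of all genes tested, and none had groups that did not overlap (0.745% of all genes in the higher and 0.859% in the lower direction). At an unadjusted p under 0.05, 6 of 29 passed, mt-Co1, mt-Co2, mt-Co3 and mt-Rnr1 higher at ZT12 and mt-Tl1 and mt-Ta lower, against 18.1% of all genes. By DESeq2, 2 members were called, mt-Rnr1 (log2 fold change 0.71, adjusted p = 0.0121) and mt-Co2 (0.66, adjusted p = 0.0383), with 1052 genes called in all. The fitted value was above 0 for 10 of the 13 messengers, with a median log2 fold change of 0.29, where 50.6% of all genes were above 0.

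Of the complex IV subunits, mt-Co1, which holds the oxygen-reducing site, had 3105, 2371, 3459, 3395, 3328 and 3314 CPM in ZT0 control mice 1 to 6 and 2787, 6557, 3358, 4389, 4310 and 3011 CPM at ZT12. Mouse 2 at ZT12 stood above all others and mice 1, 3 and 6 lay inside the ZT0 range, so the groups overlapped. The log2 fold change was 0.36 ± 0.148 (SE, n = 6 and 6; edgeR adjusted p = 0.195). mt-Co2, which receives electrons from cytochrome c, had 9.52 to 18.3 CPM (median 15.9) at ZT0 and 13.8 to 37.6 CPM (median 20.7) at ZT12, a log2 fold change of 0.63 ± 0.219 (SE; adjusted p = 0.146). mt-Co3, the remaining core subunit, had 4.44 to 9.96 CPM (median 7.32) and 6.52 to 21.1 CPM (median 10.1), a log2 fold change of 0.65 ± 0.232 (SE; adjusted p = 0.15). Both of these genes overlapped between the times, with mouse 2 highest at ZT12 in each. Their nuclear copies had values in the same direction. Gm28661 had log2 fold change 0.82 (adjusted p = 0.105) and Gm28437 had 0.84 (adjusted p = 0.0731), and the median of the 7 copies was 0.54, with none called by edgeR and 3 at an unadjusted p under 0.05. Their part in the values of mt-Co2 and mt-Co3 was not tested.

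mt-Cytb, the cytochrome b subunit of complex III, had 921 to 1506 CPM (median 1358) at ZT0 and 1102 to 2559 CPM (median 1516) at ZT12, with log2 fold change 0.28 ± 0.161 (SE; adjusted p = 0.37). The groups overlapped, and mouse 2 was again the highest at ZT12 and mouse 2 of the ZT0 group, a different animal, the lowest. For complex V, mt-Atp6, part of the proton channel, had 5.08 to 8.42 CPM and 4.94 to 13.7 CPM (log2 fold change 0.42 ± 0.212, adjusted p = 0.301). mt-Atp8 had a fitted value of -0.23 ± 0.784 (SE; adjusted p = 0.911), too imprecise to give a direction.

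Of the 7 complex I subunits, mt-Nd5 and mt-Nd4l had fitted values below 0, each by less than its SE, and the others had values above 0. mt-Nd4 had 300 to 526 CPM at ZT0 and 392 to 977 CPM at ZT12 (log2 fold change 0.36 ± 0.176, adjusted p = 0.286), mt-Nd1 had 568 to 979 and 650 to 1542 CPM (0.23 ± 0.172, adjusted p = 0.496), and mt-Nd6 had 131 to 180 and 129 to 329 CPM (0.29 ± 0.151, adjusted p = 0.323). mt-Nd2 had 332 to 562 and 364 to 763 CPM, a log2 fold change of 0.06 ± 0.151 (adjusted p = 0.888). mt-Nd5 had 568 to 823 and 562 to 893 CPM, a log2 fold change of -0.07 ± 0.125 (adjusted p = 0.815), the most precise estimate of the 13 and near 0. Of the scarce members, mt-Nd3 was at 1.30 to 3.46 and 1.74 to 4.80 CPM (0.47 ± 0.282, adjusted p = 0.381) and mt-Nd4l at 0.794 to 1.67 and 0.654 to 1.58 CPM (-0.07 ± 0.346, adjusted p = 0.948). The groups overlapped in every one of these 7 genes.

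A single control mouse at ZT12 weighed on these values. Mouse 2 was the highest of the 6 in 13 of the 15 messenger and ribosomal RNA genes and the highest of all 21 mice in 12 of 15, at 1.95 times the median of the other 5 for mt-Co1, 2.00 times for mt-Cytb, 2.14 times for mt-Nd4 and 2.43 times for mt-Co3, but 1.40 times for mt-Nd5. The same library had the highest immunoglobulin share of all, 63.6%, and an epithelial marker sum of 120 CPM. Its TMM scaling factor, 0.722, was the lowest of all 21, and a low factor raises every CPM value of a library. As a share of all counts, where that factor plays no part, the 13 messengers took 0.989% in it and 0.617% to 0.818% in the other 5. The part of the scaling in its high values was not tested. Without mouse 2, the median of the 13 messengers was 0.09 on the log2 scale, mt-Co1 was 0.18, mt-Co2 0.43, mt-Co3 0.38 and mt-Rnr1 0.45. Without mouse 1 at ZT12, which was low, mt-Rnr1 (0.82, adjusted p = 0.00906) and mt-Co3 (0.77, adjusted p = 0.0432) were called by edgeR, with 944 genes called in all.

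The immunoglobulin share differed with time of day in control mice, at a mean of 52.8% at ZT0 and 57.4% at ZT12, against 55.1% and 54.6% in knockout mice. The control shares did not overlap between the times, at 51.4814% to 53.3415% at ZT0 and 53.3422% to 63.5668% at ZT12. A fit with this share as a covariate therefore cannot fully tell the share from time of day in control mice. With that share as a covariate, the median of the 13 messengers in control mice was -0.13 and mt-Co1 was -0.05, so the direction was not kept. With the trend over gene length removed it was -0.02, and with the epithelial marker level as a covariate it was 0.32.

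**Figure D3:**
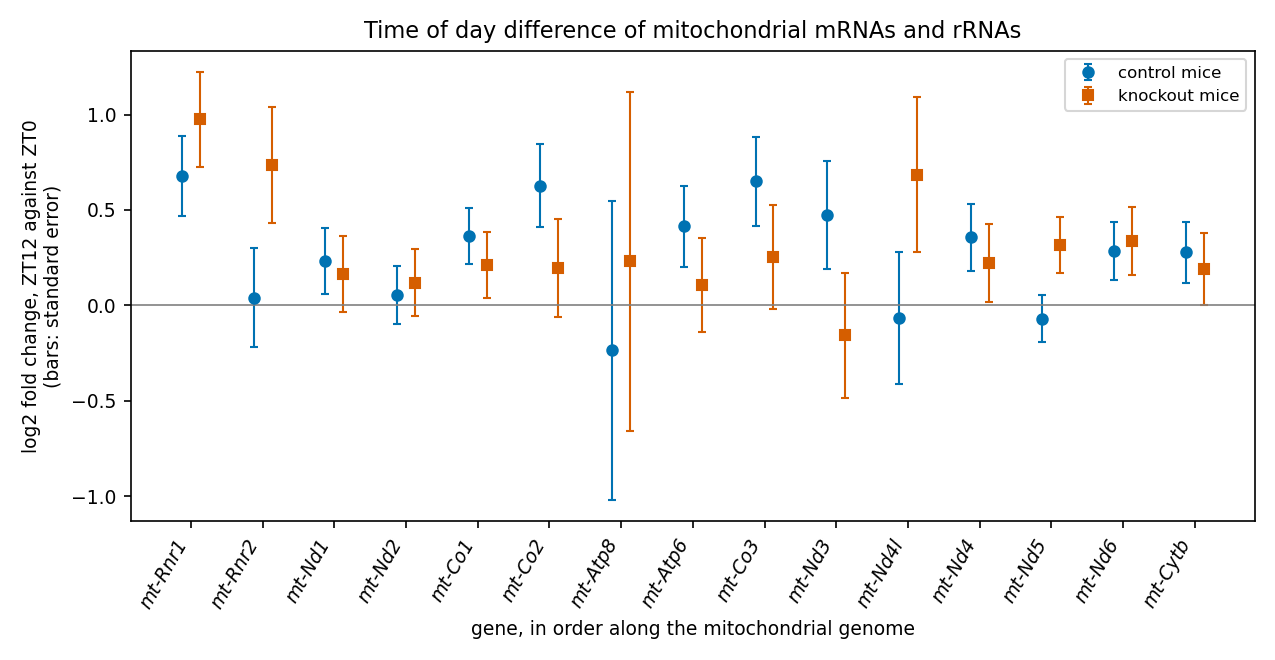
Log2 fold change, ZT12 minus ZT0, with its standard error, of the mitochondrial messengers and ribosomal RNAs in control mice (6 and 6) and knockout mice (4 and 5) from edgeR's quasi-likelihood fit. Values in control mice run from -0.23 for mt-Atp8 to 0.68 for mt-Rnr1, and mt-Rnr1 at 0.97 is the furthest from 0 in knockout mice.

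In knockout mice none of the 29 members was called between the times of day, as none of all 20256 genes was (0%), while 4 members passed an unadjusted p under 0.05 (8.01% of all genes): mt-Nd5, mt-Rnr1 and mt-Rnr2 higher at ZT12 (3.91% of all genes) and mt-Tq lower (4.09%). DESeq2 called 1 member, mt-Rnr1 (log2 fold change 0.98, adjusted p = 0.0222), and 47 genes in all. The groups did not overlap for mt-Co1, mt-Nd6, mt-Rnr1 and mt-Tn, each higher at ZT12, against 1.22% of all genes in that direction and 1.41% in the other, where no member lay. The fitted value was above 0 for 12 of the 13 messengers, with a median of 0.21, where 50.7% of all genes were above 0.

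The spread among knockout mice was small for several messengers. The SE and p values of each comparison came from a joint fit of all 4 groups with a common estimate of the spread. Those of the knockout comparison therefore also carry the spread of the control mice. In a fit of the knockout groups alone, edgeR called no member, and 3 messengers had an unadjusted p under 0.05. The share of all genes at that p was not taken for that fit. mt-Co1 had 2573, 3199, 2969 and 3068 CPM in mice 1 to 4 at ZT0 and 3308, 3374, 3510, 3302 and 3616 CPM in mice 1 to 5 at ZT12, each ZT12 mouse above each ZT0 mouse, with log2 fold change 0.21 ± 0.172 (SE, n = 4 and 5; adjusted p = 0.772). mt-Nd6 had 122, 153, 121 and 155 CPM in the ZT0 mice and 178, 173, 187, 171 and 161 CPM at ZT12, also without overlap (0.34 ± 0.177, adjusted p = 0.64). mt-Nd5 had 538, 736, 419 and 677 CPM in the ZT0 mice and 785, 698, 776, 724 and 705 CPM at ZT12 (0.32 ± 0.146, adjusted p = 0.613). Mice 1 and 3 at ZT0 were the low ones for mt-Nd5, and mouse 2 lay within the ZT12 range. Without mouse 3 the value for mt-Nd5 was 0.18. Among the other messengers the fitted values in knockout mice ran from -0.16 for mt-Nd3 to 0.69 for mt-Nd4l, and mt-Cytb was at 0.19 ± 0.188 (SE; adjusted p = 0.824), mt-Nd4 at 0.22 ± 0.204 (SE; adjusted p = 0.811) and mt-Co2 at 0.20 ± 0.255 (SE; adjusted p = 0.88).

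Of the ribosomal RNAs, mt-Rnr1, the RNA of the small mitochondrial ribosomal subunit, had the largest fitted time of day value of the 15 messenger and ribosomal RNA genes in both genotypes. In control mice it had 65.6, 45.0, 64.8, 74.4, 72.2 and 68.9 CPM in the ZT0 mice and 50.9, 181, 93.0, 110, 92.9 and 97.6 CPM at ZT12, so that 5 of the 6 ZT12 mice were above every ZT0 mouse and mouse 1 was not. The log2 fold change was 0.68 ± 0.209 (SE, n = 6 and 6; edgeR unadjusted p = 0.00417, adjusted p = 0.104). In knockout mice it had 45.0, 58.2, 40.1 and 60.3 CPM in the ZT0 mice and 86.4, 85.6, 124, 96.4 and 108 CPM at ZT12, each ZT12 mouse above each ZT0 mouse. The log2 fold change there was 0.97 ± 0.247 (SE, n = 4 and 5; edgeR unadjusted p = 0.000831, adjusted p = 0.324). Fits that lacked any single mouse gave 0.88 to 1.05.

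mt-Rnr2, the RNA of the large subunit, did not follow mt-Rnr1 in control mice. It had 171, 120, 134, 199, 168 and 168 CPM in the ZT0 mice and 80.8, 219, 179, 138, 152 and 219 CPM at ZT12, overlapping, with log2 fold change 0.04 ± 0.26 (SE; adjusted p = 0.958). In knockout mice it had 74.6, 165, 62.0 and 162 CPM in the ZT0 mice and 137, 192, 265, 182 and 187 CPM at ZT12, with mice 1 and 3 at ZT0 below and mice 2 and 4 within the ZT12 range (0.74 ± 0.306, unadjusted p = 0.0271, adjusted p = 0.613). The ratio of mt-Rnr1 to mt-Rnr2 counts was 0.409 ± 0.0417 (SD, n = 6) in control mice at ZT0 and 0.638 ± 0.151 (SD, n = 6) at ZT12, and 0.494 ± 0.152 (SD, n = 4) and 0.53 ± 0.0758 (SD, n = 5) in knockout mice. Since ribosomal RNAs have only short tails, their counts in libraries selected on poly(A) stand for the part that was caught, and not for their amount in the cell.

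**Figure D4:**
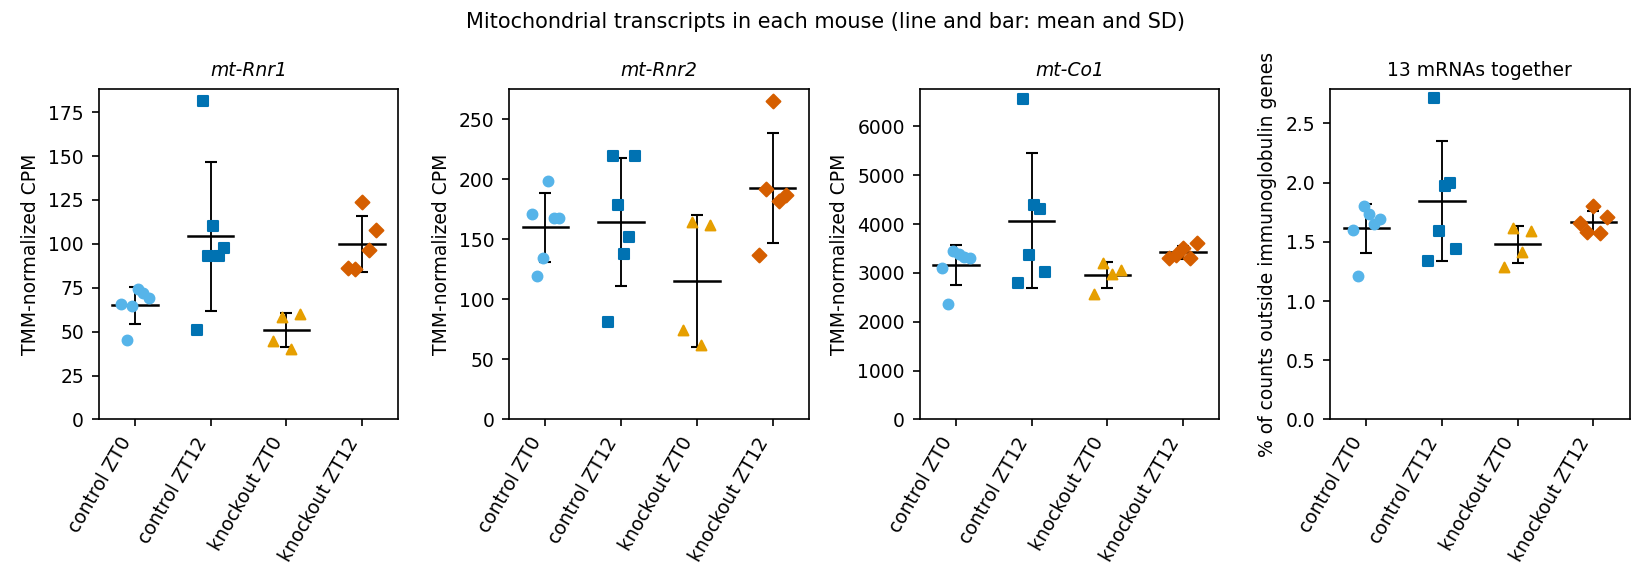
Level of mt-Rnr1, mt-Rnr2 and mt-Co1 (TMM-scaled CPM) and share of the 13 messengers in the counts outside immunoglobulin genes (percent) in each mouse of the 4 groups, with the group mean (line) and SD (bar). mt-Rnr1 in knockout mice runs from 40.1 to 60.3 at ZT0 and from 85.6 to 124 at ZT12, and mouse 2 of the control ZT12 group is the highest point for mt-Co1 and mt-Rnr1.

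The knockout time of day difference was then set against the control difference in an interaction term, for which no gene of the table was called by edgeR (0%) and 2 of 29 members passed an unadjusted p under 0.05 (10.8% of all genes), mt-Tl1 above 0 (5.18%) and mt-Tq below 0 (5.63%). DESeq2 called no member and 4 genes in all. The term was -0.15 ± 0.226 (SE; adjusted p = 0.842) for mt-Co1, 0.39 ± 0.192 (SE; adjusted p = 0.463) for mt-Nd5, 0.30 ± 0.32 (SE; adjusted p = 0.759) for mt-Rnr1 and 0.69 ± 0.4 (SE; adjusted p = 0.518) for mt-Rnr2. Over the 13 messengers it ran from -0.63 to 0.75 with a median of -0.09, 5 being above 0, where 51.1% of all genes were. In this fit a different time of day response without Arntl was not detectable in these genes at this spread between mice. With the immunoglobulin share as a covariate the median was 0.39, and 4 of 29 members, 3 of them messengers, had an edgeR unadjusted p under 0.05. With the gene length trend removed the median was 0.22, with 9 of 29 members, 4 of them messengers, at that p. Neither fit called a member, and the share of all genes at that p was not taken for them.

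Between genotypes at ZT0, edgeR called no member and 0.00987% of all genes, and mt-Nd5 and mt-Tl1, both lower in knockout mice, passed an unadjusted p under 0.05 (4.9% of all genes, 2.66% higher and 2.24% lower). mt-Nd5 was at 568 to 823 CPM in control and 419 to 736 CPM in knockout mice (log2 fold change -0.29 ± 0.141, adjusted p = 0.926), and its value was -0.16 without knockout mouse 3. mt-Rnr1 was at -0.36 (unadjusted p = 0.146 by edgeR's quasi-likelihood test) and mt-Rnr2 at -0.47 (unadjusted p = 0.129), or -0.26 without that mouse, and the 13 messengers ran from -0.33 to 0.23 with a median of -0.14, in a table where 48.4% of all genes were above 0. Groups without overlap made up 0.504% of all genes in the higher and 0.474% in the lower direction, and no member was among them. At ZT12, edgeR called no member and 0.0148% of all genes (0.00494% higher and 0.00987% lower), with mt-Ta, higher in knockout mice, at an unadjusted p under 0.05 (8.83% of all genes, 4.25% higher and 4.58% lower). There the 13 messengers ran from -0.55 to 0.70 with a median of -0.23, mt-Rnr1 was at -0.06 and mt-Rnr2 at 0.23, where 48.7% of all genes were above 0. The genotypes overlapped in every member, against 0.242% and 0.138% of all genes without overlap in the higher and lower direction. DESeq2 called no member at either time, with 5 and 8 genes called in all.

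As a share of all counts, the 13 messengers took 0.761% ± 0.102 (SD, n = 6) in control mice at ZT0, 0.769% ± 0.134 (SD, n = 6) at ZT12, 0.665% ± 0.0923 (SD, n = 4) in knockout mice at ZT0 and 0.756% ± 0.0432 (SD, n = 5) at ZT12. Outside immunoglobulin genes the shares were 1.61% ± 0.21, 1.84% ± 0.506, 1.48% ± 0.154 and 1.67% ± 0.0946 in the same order, with single mice at 1.21% to 2.72%. The ratio of the ZT12 to the ZT0 mean was 1.01 in control mice over all counts and 1.14 outside immunoglobulin genes, and 1.14 and 1.13 in knockout mice. The ribosomal RNAs took 0.0508% ± 0.00788, 0.0576% ± 0.0175, 0.0381% ± 0.015 and 0.0652% ± 0.0139 of the counts outside immunoglobulin genes in the same order. On those counts their ratio of the ZT12 to the ZT0 mean was 1.14 in control and 1.71 in knockout mice. Over all counts the ribosomal RNAs took 0.0240% ± 0.00384, 0.0243% ± 0.00682, 0.0174% ± 0.00744 and 0.0295% ± 0.00589 (SD) in the same order, so the 2 control means were then close. Counting error was small beside these spreads, the 95% Wilson interval for the first control mouse at ZT0 being 0.740% to 0.749% of all counts.

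Within the 13 messengers, mt-Co1 took the largest share of counts in every group. mt-Co1 took 44.3% ± 1.28 (SD, n = 6) of their counts in control mice at ZT0 and 46.9% ± 0.57 (SD, n = 6) at ZT12, while mt-Nd5 took 10.2% ± 0.414 and 8.33% ± 1.44 and mt-Nd2 6.73% ± 0.313 and 5.85% ± 0.336. In knockout mice mt-Co1 took 45.7% ± 1.26 (SD, n = 4) and 45.7% ± 1.94 (SD, n = 5), and mt-Nd5 9.12% ± 1.67 and 9.85% ± 0.47. The knockout difference in the mt-Nd5 share, 0.73 percentage points, was -0.094 without mouse 3 at ZT0. The mt-Nd5 shares of 8.37% and below belonged to control ZT12 mice 2 (6.52%), 4 (6.67%) and 5 (8.37%) and to that knockout mouse (6.63%), whose immunoglobulin shares were 63.6%, 59.5%, 59.1% and 59.4%, the highest 4 of the 21. The part of the immunoglobulin share in this was not tested. The control ranges for mt-Co1 met at 46.1% to 46.2% and so overlapped slightly. The group means were 18.2% to 18.5% for mt-Cytb and 2.13% to 2.32% for mt-Nd6, while in control mice mt-Co2 went from 0.206% to 0.259% and mt-Co3 from 0.101% to 0.128%.

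The transfer RNA genes, whose products carry amino acids to the mitochondrial ribosome, had 5820 counts in all and 167 to 503 per mouse. The 8 genes annotated on the minus strand had 5191 counts and the 14 on the plus strand 629, and 7 of each passed the filter. mt-Tf, mt-Tv and mt-Ts1 were at 0 in all mice. mt-Tp, the proline transfer RNA gene (MT:15356-15422, minus strand), alone had 3634 counts and a mean of 158 CPM per kilobase, followed by mt-Tn at 28.8 and mt-Tc at 22.6, and then mt-Tl2 (8.96), mt-Tl1 (6.75), mt-Ty (6.47), mt-Te (6.34) and mt-Tw (3.83). mt-Ts2 (39 counts), mt-Th (31), mt-Tr (28), mt-Tg (27), mt-Ta (26) and mt-Tq (10) also passed, and the other 5 genes with any count had 1 to 8 in all mice. A mature transfer RNA is short and has no poly(A) tail, and the form of RNA that these reads came from was not tested.

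Few transfer RNA genes had enough counts to compare. mt-Tp had 155, 127, 143, 189, 176 and 240 counts in control mice at ZT0 and 147, 323, 192, 221, 205 and 90 at ZT12, overlapping, with mouse 2 again the highest (log2 fold change 0.34). mt-Tl1, for leucine, had 22, 9, 10, 18, 8 and 21 counts in control mice at ZT0 and 5, 6, 4, 5, 7 and 4 at ZT12, fewer in each ZT12 mouse, although the groups overlapped once scaled by library size (log2 fold change -1.35 ± 0.584, edgeR adjusted p = 0.218). It lies just after mt-Rnr2 on the same strand. mt-Ta, for alanine, had 5, 0, 0, 1, 5 and 1 counts at ZT0 and none in any of the 6 ZT12 control mice, which is too few for a fold change. In knockout mice mt-Tn, for asparagine, had 0.934 to 1.53 CPM at ZT0 and 1.58 to 2.71 CPM at ZT12 without overlap. mt-Tq, for glutamine, which was among the members at an unadjusted p under 0.05, had 10 counts in all 21 mice.

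The nuclear-encoded partners were examined beside these genes, from lists of respiratory chain subunits and of the proteins that copy, transcribe, process and translate mitochondrial DNA and RNA. In control mice the median log2 fold change, ZT12 minus ZT0, was 0.34 for 37 complex I subunits, 0.33 for 9 complex III subunits, 0.40 for 15 complex IV subunits and 0.26 for 16 complex V subunits, against 0.15 for the 4 complex II subunits and 0.15 for 76 mitochondrial ribosomal proteins. At an unadjusted p under 0.05, 17 of 37, 5 of 9, 10 of 15, 9 of 16, 2 of 4 and 11 of 76 were higher at ZT12 and 0, 0, 0, 1, 0 and 1 lower (9.19% of all genes were higher and 8.86% lower). For lists without a structural role in the complexes the medians were near 0, at 0.02 for 10 genes of mitochondrial DNA transcription, -0.11 for 13 replication proteins, -0.04 for 22 RNA processing proteins, -0.02 for 10 translation factors and -0.08 for 9 regulators of biogenesis. At an unadjusted p under 0.05, 0 of 10, 1 of 13, 1 of 22, 1 of 10 and 2 of 9 of these were higher and 0, 1, 5, 0 and 0 lower, so that the median of the RNA processing list stood beside 5 lower genes. With the immunoglobulin share as a covariate the medians of complexes I, III, IV and V were -0.04, 0.09, 0.03 and -0.01. Ndufa4 was counted in the lists of both complex I and complex IV, so the 4 lists hold 76 separate genes.

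Called by edgeR in control mice were 4 of the 220 members of these lists, 3 higher (0.948% of all genes) and 1 lower (0.78%). The number was 0 to 27 when single mice were left out, 27 without control mouse 1 at ZT12, 0 without control mouse 1, 2, 3 or 5 at ZT0 or control mouse 2 or 4 at ZT12, and 0 with the immunoglobulin or the epithelial covariate. Over all genes tested, edgeR called 944 without control mouse 1 at ZT12 and 31 to 101 in the single-mouse fits with 0 list members. It called 0 with the immunoglobulin and 47 with the epithelial covariate. Ndufa6, an accessory subunit of complex I, averaged 18.6 ± 2.1 CPM (SD, n = 6) in the ZT0 mice and 27.7 ± 6.96 CPM in the ZT12 mice, without overlap (log2 fold change 0.57 ± 0.13, adjusted p = 0.0275). Uqcrh, the hinge subunit of complex III, was at 27.4 ± 2.0 and 42.5 ± 14.2 CPM (0.63 ± 0.157, adjusted p = 0.0426), and Mrpl24, a protein of the large mitochondrial ribosomal subunit, at 24.7 ± 3.0 and 32.2 ± 5.32 CPM (0.38 ± 0.1, adjusted p = 0.0479). Lactb2, an endonuclease of mitochondrial RNA, fell, from 13.3 ± 1.54 to 9.03 ± 1.68 CPM without overlap (-0.56 ± 0.139, adjusted p = 0.0414). Among the others with the smallest p in their lists and not called were Cox5a of complex IV (0.44 ± 0.13, adjusted p = 0.0755), Atp5d of complex V (0.40 ± 0.114, adjusted p = 0.068) and Sdhd of complex II (0.36 ± 0.105, adjusted p = 0.0726). Fastkd2, which binds mitochondrial RNA, was at -0.40 ± 0.156 (SE; adjusted p = 0.18), and Rexo2, which degrades short RNA, at 0.36 ± 0.129 (SE; adjusted p = 0.149). The translation factor Tsfm was at 0.49 ± 0.158 (adjusted p = 0.107). Of the biogenesis regulators, Esrra was at 0.46 ± 0.158 (adjusted p = 0.128) and Ppargc1a at 4.32 ± 1.34 (adjusted p = 0.0968). Ppargc1a was near the floor, at 0 to 0.0655 CPM at ZT0 and 0 to 1.82 CPM at ZT12. In these lists 6 of 10 translation factors and 6 of 9 regulators were below 0. Polrmt, the mitochondrial RNA polymerase, was at -0.03 (adjusted p = 0.931) and Tfam, which packages mitochondrial DNA and starts its transcription, at -0.14 (adjusted p = 0.588). Lrpprc, which stabilises mitochondrial messengers, was at 0.12 (adjusted p = 0.668). These last 3 genes were picked for their roles after their values were seen.

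In knockout mice none of the 220 was called by edgeR, and the medians of complexes I, III, IV and V lay at -0.11, -0.06, -0.04 and -0.06, where the 13 mitochondrial messengers had a median of 0.21. In the interaction term, again with none called by edgeR, the medians were -0.42, -0.34, -0.39 and -0.34, and 19 of 37, 4 of 9, 3 of 15 and 3 of 16 subunits were lower at an unadjusted p under 0.05, where 5.63% of all genes were. The mitochondrial messengers had a median of -0.09 in that term and 0 of 13 at an unadjusted p under 0.05. With the immunoglobulin share as a covariate the interaction medians were -0.007 for the subunits of complexes I, III, IV and V together and 0.39 for the messengers. Of the 13 messengers, 3 then had an edgeR unadjusted p under 0.05. These are descriptions of 2 lists side by side, and the difference between them was not tested.

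**Figure D5:**
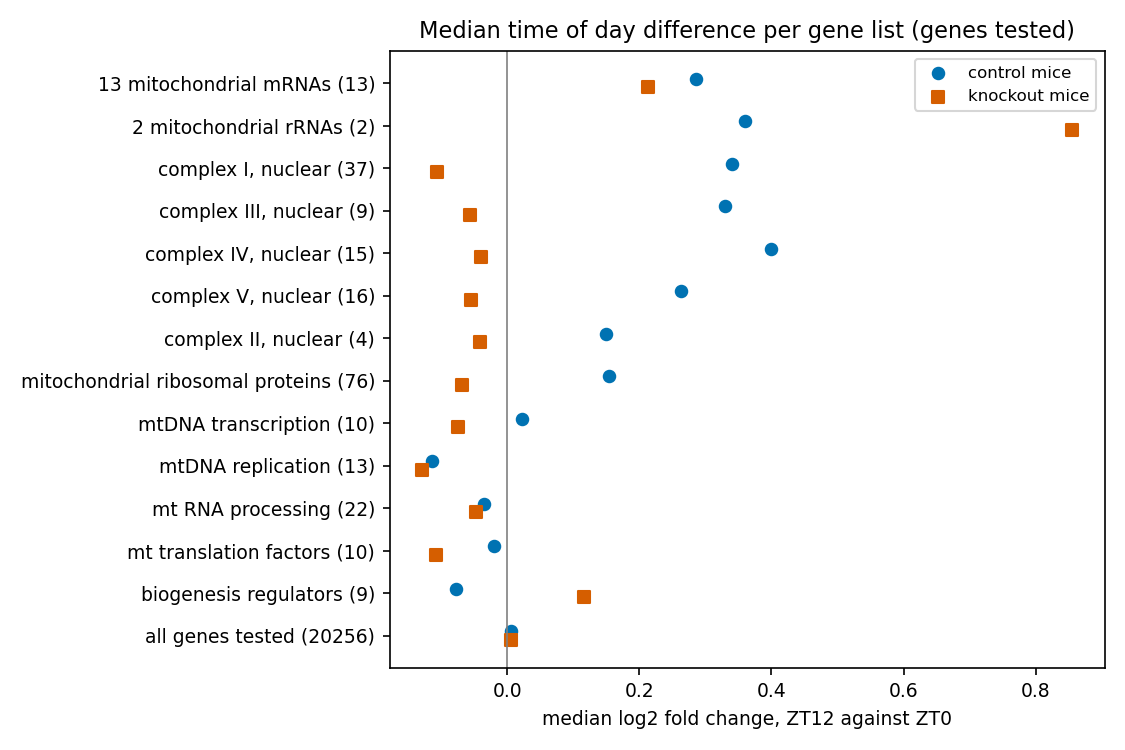
Median log2 fold change, ZT12 minus ZT0, of the mitochondrial messengers and of each list of nuclear-encoded genes in control mice (circles) and knockout mice (squares), with the number of genes tested in parentheses and all genes tested in the lowest line. The medians of nuclear complexes I, III, IV and V lie at 0.26 to 0.40 in control and at -0.11 to -0.04 in knockout mice, and those of the mitochondrial messengers at 0.29 and 0.21.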

How the data were processed

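Small-intestinal IgA+ PCs were profiled by poly(A)-selected RNA-seq in 21 mice. The deposited table holds the authors' raw counts per gene, with no normalization. The labels name DESeq and DESeq2. The aligner, counter, genome build, strand setting and treatment of multi-mapping reads are not given in the sources used here, but the coordinates of all 37 members matched GENCODE M21 (GRCm38).

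Genes with at least 10 counts in total were kept, and all 4 groups were fitted together with edgeR 4.0.16 (R 4.3.3) after TMM scaling. Quasi-likelihood tests, robust and two-sided, were adjusted by Benjamini-Hochberg over all genes tested, with a threshold of 0.05. The study's methods used DESeq2 and 0.01. The scripts were tested on simulated data. Each library is a separate mouse and total counts are given in the report. Levels per kilobase are TMM-scaled CPM divided by gene length. Shared windows were found by exact matching in the GENCODE M21 transcripts. The annotated copies on chromosome 1 were compared base by base with the mitochondrial genes at their collinear positions, with a small shift allowed. Intervals of shares cover counting error only.

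All members, the mRNAs and rRNAs in full and tRNAs with at least 10 counts, were named, and from the nuclear lists the called genes, some of the 3 with the smallest unadjusted p per list, and 3 genes chosen for their roles after their values were seen. Members and lists were chosen with earlier results of these data known. The alternatives were DESeq2 1.42.0, other scalings and filters, covariates, a replicate block and leaving out mice.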

Additional observations from a re-analysis of the deposited data

Results flagged for a closer look

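In 5 of 68 tests of a single mouse within a group of 4 to 6, the highest or lowest value stood apart from the others by Dixon's criterion at the 95% level, which chance alone gives in about 5% of such tests. Control mouse 2 at ZT0 was low for mt-Co1, at 2371 CPM with the next mouse at 3105 CPM. It was also low for mt-Rnr1, at 45.0 CPM with the next at 64.8 CPM, and for the share of the 13 messengers in the counts outside immunoglobulin genes, at 1.21% with the next at 1.60%. Knockout mouse 1 at ZT12 was high for mt-Nd4l, at 2.53 CPM with the next at 1.34 CPM. Control mouse 5 at ZT12 was high for mt-Atp8, at 0.436 CPM with the next at 0.122 CPM, a gene with few counts in any mouse.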

How the results depend on the processing

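The replicate numbers gave no sign of a pairing of the mice, since correlations of same-numbered mice in their deviations from the group means ran from -0.15 to 0.48 over the 6 pairs of groups, with medians of -0.081 to 0.065. A grouping of the libraries that cuts across these numbers was not examined. With a replicate block, members called stayed at 0 in each comparison, the median of the 13 messengers was 0.24 (control), 0.21 (knockout), -0.04 (interaction), -0.20 (genotype at ZT0) and -0.25 (genotype at ZT12), mt-Rnr2 in control mice was -0.028, and 2 nuclear genes were called. Over all genes, 183 were called in control mice with that block. DESeq2 called 2 members in control and 1 in knockout mice, and 23 nuclear genes in control mice, with 1052 and 47 genes called in all. A threshold of 0.01 called no member.

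Scaling by library size alone moved the median of all genes by -0.20 in control mice, 0.19 in the interaction and 0.12 between genotypes at ZT12. It gave -0.026 for mt-Nd1, -0.20 for mt-Nd2 and -0.18 for mt-Rnr2 in control mice, 0.087 for mt-Co1 in the interaction, 0.13 for mt-Rnr1 between genotypes at ZT12, and for the nuclear subunits medians of 0.10 (control) and -0.16 (interaction) with 2 called. Over all genes, 446 were then called in control mice. With the immunoglobulin share as a covariate the medians were -0.13 (control), 0.39 (interaction) and 0.064 (genotype at ZT12). In control mice mt-Co1 was then -0.049, mt-Cytb -0.18, mt-Nd1 -0.21, mt-Nd4 -0.13, mt-Nd2 -0.32, mt-Nd6 -0.089 and mt-Atp6 -0.099. mt-Co1 was 0.29 in the interaction and 0.023 between genotypes at ZT12, mt-Rnr1 0.19 between genotypes at ZT12, and the nuclear medians -0.0039 and -0.00698 with 0 called by edgeR. With the gene length trend removed the medians were -0.020 (control) and 0.22 (interaction). In control mice mt-Cytb was -0.0044, mt-Nd1 -0.090, mt-Nd2 -0.24, mt-Nd6 -0.17, mt-Rnr2 -0.14 and mt-Nd3 -0.020, with mt-Co1 0.094 in the interaction, mt-Rnr1 0.20 between genotypes at ZT12 and nuclear medians of 0.10 and -0.16. With the epithelial covariate mt-Nd4l in control mice was 0.19 and mt-Atp8 in knockout mice -0.13, and with this covariate or with fits on the compared groups alone 0 nuclear genes were called. Over all genes, these fits called 47 and 38 in control mice. The cause of these changes was not tested.

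Leaving out control mice 1 and 2 at ZT12 together, chosen after seeing the data, gave mt-Rnr1 called in control (0.60, adjusted p = 0.0214) and knockout mice (0.97, adjusted p = 0.00648), with mt-Nd2 at -0.051 in control mice and mt-Rnr1 at 0.016 between genotypes at ZT12. That fit called 370 genes in all in control mice and 3 in knockout mice, of 19906 tested. Over all genes, the fits without a single mouse called 31 to 944 in control mice and 0 or 1 in knockout mice. Fits that lacked a single mouse gave 0 to 2 members called in control mice and 0 in the others, medians of 0.09 to 0.39 (control), 0.09 to 0.26 (knockout), -0.19 to 0.09 (interaction), -0.22 to -0.06 (genotype at ZT0) and -0.33 to -0.06 (genotype at ZT12), and nuclear subunit medians of 0.23 to 0.42 (control), -0.13 to 0.06 (knockout) and -0.48 to -0.25 (interaction) with 0 to 27 called. In control mice mt-Nd2 ran from -0.10 to 0.14, mt-Rnr2 from -0.057 to 0.18, mt-Nd4l from -0.20 to 0.076 and mt-Atp8 from -1.03 to 0.052. In knockout mice mt-Atp6 ran from -0.052 to 0.22, mt-Atp8 from -0.046 to 0.46 and mt-Nd3 from -0.30 to 0.0017. mt-Co1 in the interaction ran from -0.25 to 0.031 and mt-Rnr1 between genotypes at ZT12 from -0.21 to 0.17. Ratios of ZT12 to ZT0 shares of all counts, immunoglobulin genes included, ran from 0.953 to 1.05 (control) and 1.09 to 1.19 (knockout) for messengers. For ribosomal RNAs they ran from 0.947 to 1.10 and 1.47 to 1.96.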
